A study of Mus musculus with 4 samples.

Results

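CD45, encoded by Ptprc, and the leukocyte integrins are surface proteins that mark white blood cells and let them hold on to vessel walls and tissue. Acetylation of histone H3 at the promoters of 8 such genes was examined in the mouse left ventricle: Ptprc, Itgam, Itgal, Itgax, Itgb2, Itgb7, Itga4 and Selplg. The 8 genes were taken by name from the 23631 genes of the deposited promoter table, each represented by the RefSeq transcript with the highest mean count, and all 8 were among the 22835 genes kept at a mean count of at least 10.

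Chromatin was immunoprecipitated with an antibody against acetylated histone H3 from the left ventricle of C57BL6 males of 10 to 12 weeks, and 1 library was sequenced per group. The TAC TSA group had transverse aortic constriction, which narrows the aorta and loads the ventricle with pressure, and then trichostatin A, an inhibitor of histone deacetylases dissolved in DMSO. The TAC Veh group had the same surgery and DMSO alone, the Sham TSA group a sham operation and trichostatin A, and the Sham Veh group a sham operation and DMSO alone. Injections went on for 4 weeks, and trichostatin A was given at 0.6 mg per kg per day. All animals therefore carried an operation and the solvent, and how many ventricles went into a library was not stated. Each sham library, unlike those from TAC hearts, is tied by its label to a further deposited sample, so surgery and origin of the library cannot be told apart.

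CD45 is a receptor tyrosine phosphatase carried by nearly all nucleated blood cells, where it removes inhibitory phosphates from Src family kinases. The integrins are pairs of an alpha and a beta chain. The beta 2 chain Itgb2 pairs with Itgal to form LFA-1, with Itgam to form Mac-1 and with Itgax to form CR4, and the alpha 4 chain Itga4 pairs with Itgb7 (LPAM-1) or with the widely expressed Itgb1 (VLA-4). Selplg encodes PSGL-1, the ligand on leukocytes that rolls on selectins before integrins take hold. In a healthy heart these genes are known mainly from resident macrophages and from smaller numbers of other leukocytes.

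Total counts over all promoters were 6842296 in TAC TSA, 8873302 in TAC Veh, 9905553 in Sham TSA and 9612616 in Sham Veh. Values below are scaled counts, which are promoter reads as CPM, with library sizes summed over the genes used and adjusted by TMM, the trimmed mean of log ratios between libraries. How long the promoter window is was not stated, so the levels describe reads per promoter and not per base. A weak background differed between libraries. The 1274 olfactory and vomeronasal receptor promoters, most of which are not known to be active in heart, held 0.660% of the counts in TAC TSA, 0.493% in TAC Veh, 0.417% in Sham TSA and 0.411% in Sham Veh, and their median log2 ratio was 0.41 in TAC TSA over TAC Veh, 0.67 with Sham TSA in place of TAC Veh, 0.29 in TAC Veh over Sham Veh and 0.07 in Sham TSA over Sham Veh. All 10 cardiomyocyte markers had reads in every library, with a lowest scaled count of 26.3, in TAC Veh. All 1274 receptor promoters also had reads in every library, so the presence of reads does not identify the tissue. Ratios are given as log2 with exact 95% intervals that cover counting error only. They compare 2 libraries and have no replicate check. A promoter is called apart when its ratio is at least 1.5-fold and its interval leaves out 1.

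The 8 promoters were weakly acetylated. Together they held 794 reads in TAC TSA, 1096 in TAC Veh, 1110 in Sham TSA and 1015 in Sham Veh. Their scaled counts ran from 9.93 for Ptprc in TAC TSA to 34.7 for Itgb7 in Sham Veh. Each lay above at least 94.2% of receptor promoters of its own library, and each stayed below the median of all promoters kept, the highest being Itgb7 in TAC TSA at percentile 48.9. The order was similar in the libraries: Itgb7 came first in each, with Itga4 next to it in TAC Veh (29.4 and 29.3), and Itgb2 and Selplg followed, with overlapping intervals in all 4 libraries. Ptprc, Itgam and Itgax had the lowest levels in TAC TSA, and Ptprc, Itgam and Itgal in Sham Veh.

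**Figure D1:**
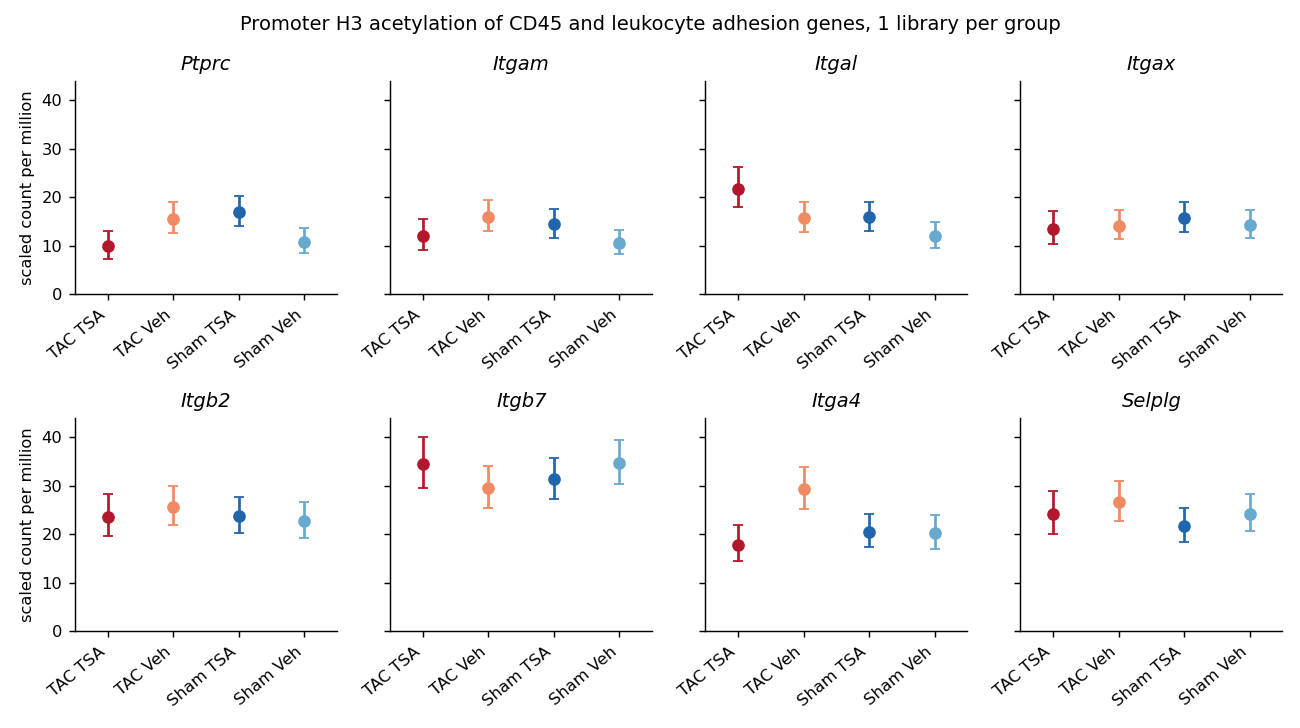
Scaled counts (promoter reads as TMM-adjusted CPM, vertical axis) of the 8 genes in the TAC TSA, TAC Veh, Sham TSA and Sham Veh libraries, 1 point per library with its exact 95% Poisson interval. Ptprc is lowest in TAC TSA at 9.93, Itga4 is highest in TAC Veh at 29.3, Itgal is highest in TAC TSA at 21.8, and Itgb2, Itgb7, Itgax and Selplg stay within narrow ranges.

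The promoter windows of 3 genes whose ratios stood out (Ptprc, Itgam and Itga4), and of Itgb7, which varied little, are shown so that their base composition and leukocyte motifs can be compared. The sequences are RefSeq's on GRCm38.p6, 250 bases before to 50 after an annotated start, read 5′ to 3′ along the gene. Capitals mark the core GAGGAA of PU.1, the myeloid and B cell factor encoded by Spi1, and the core TGTGGT of the RUNX factors, on either strand (TTCCTC and ACCACA on the other).
Ptprc, chr1:138175256-138175555, minus strand: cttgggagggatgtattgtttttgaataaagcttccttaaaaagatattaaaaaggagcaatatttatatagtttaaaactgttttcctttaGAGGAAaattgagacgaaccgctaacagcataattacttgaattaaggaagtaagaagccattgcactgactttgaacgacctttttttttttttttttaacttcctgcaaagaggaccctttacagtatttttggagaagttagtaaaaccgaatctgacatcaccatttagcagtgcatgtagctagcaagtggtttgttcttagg
Itgam, chr7:128062390-128062689, plus strand: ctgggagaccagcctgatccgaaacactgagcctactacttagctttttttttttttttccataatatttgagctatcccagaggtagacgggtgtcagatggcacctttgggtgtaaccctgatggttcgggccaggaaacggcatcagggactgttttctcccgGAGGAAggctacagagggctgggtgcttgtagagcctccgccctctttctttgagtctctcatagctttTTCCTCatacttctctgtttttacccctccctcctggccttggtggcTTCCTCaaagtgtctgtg
Itga4, chr2:79255176-79255475, plus strand: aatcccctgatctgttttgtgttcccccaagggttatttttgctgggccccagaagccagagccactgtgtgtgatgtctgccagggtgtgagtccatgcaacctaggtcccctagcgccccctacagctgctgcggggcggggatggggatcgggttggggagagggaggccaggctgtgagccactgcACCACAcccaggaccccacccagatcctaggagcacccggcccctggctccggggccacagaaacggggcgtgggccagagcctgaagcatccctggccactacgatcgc
Itgb7, chr15:102231886-102232185, minus strand: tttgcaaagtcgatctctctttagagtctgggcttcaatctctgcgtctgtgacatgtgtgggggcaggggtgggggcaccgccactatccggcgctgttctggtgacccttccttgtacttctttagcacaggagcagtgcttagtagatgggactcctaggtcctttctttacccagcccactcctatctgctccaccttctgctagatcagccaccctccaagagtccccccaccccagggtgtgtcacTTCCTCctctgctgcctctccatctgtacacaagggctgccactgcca

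Windows were found for 5 of the 8 genes (these 4 and Itgax), and Ptprc has 2 annotated starts, of which the upstream one is shown and described. The window of the other Ptprc start held neither the PU.1 nor the RUNX core and had a G and C content of 39.3%. The PU.1 core occurred at 1 place in the printed Ptprc window, 3 in that of Itgam and 1 in that of Itgb7. It is present in 28.3% of all 32851 windows of this length. The RUNX core was found in the Itga4 and Itgax windows, against 16.8% of all windows. The G and C content was 33.7% for Ptprc, 50.3% for Itgam, 56.3% for Itgb7 and 64.3% for Itga4, beside a median of 52.7% over all windows. The Sp1 core GGGCGG, on either strand, was found in the Itgam and Itga4 windows and in 35.7% of all windows. These matches are letters in a window and say nothing of binding, and the counting window of the mm9 table may differ from the one printed.

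Ptprc, the pan-leukocyte phosphatase, was lower with TSA after TAC and higher with TSA after the sham operation. Its promoter held 50 reads in TAC TSA, 99 in TAC Veh, 118 in Sham TSA and 74 in Sham Veh, which are scaled counts of 9.93, 15.6, 17.0 and 10.9. TAC Veh and Sham TSA were thus the high libraries and TAC TSA and Sham Veh the low ones. The log2 ratio was −0.65 (−1.17 to −0.15) in TAC TSA over TAC Veh and 0.64 (0.21 to 1.08) in Sham TSA over Sham Veh, both past 1.5-fold. Against Sham TSA, TAC TSA was at −0.78 (−1.29 to −0.29), also apart, and in TAC Veh over Sham Veh 0.51 (0.06 to 0.97), which falls short of 1.5-fold. TAC TSA over Sham Veh gave −0.14 (−0.69 to 0.40). These ratios share libraries and are not independent of each other. In bulk tissue, fewer leukocytes and less acetylation per leukocyte cannot be told apart.

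The difference between the log2 ratio of TSA after TAC and that after sham surgery was −1.29 for Ptprc (95% counting interval −1.94 to −0.65). The same difference was −0.85 (−1.48 to −0.22) for Itgam and −0.73 (−1.23 to −0.24) for Itga4. In these 3 of the 8 genes the interval lay below 0, and in none did it lie above, where 9.14% of all promoters lay below and 7.08% above. Itgb7 had a value of 0.38 (−0.02 to 0.78), and the other members ran from −0.21 for Itgax to 0.08 for Itgal with intervals across 0. Among gene lists described below, the interval lay below 0 in 8 of 14 pan-leukocyte genes and 6 of 12 macrophage markers. It did so in 4 of 8 fibroblast markers, and in 13 of 26 genes of integrin activation and CD45 signalling, with 2 above. It lay above 0 in 8 of 10 cardiomyocyte markers and 3 of 8 T and NK cell markers. The receptor promoters had a median difference of 0.37. With 1 library per cell of the design the members' differences cannot be tested.

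The beta 2 chain Itgb2, shared by LFA-1, Mac-1 and CR4, varied least of the 8 genes with TMM scaling. It held 119 reads in TAC TSA, 163 in TAC Veh, 164 in Sham TSA and 154 in Sham Veh, or scaled counts of 23.6, 25.6, 23.7 and 22.7. Its most distant libraries, TAC Veh and Sham Veh, differed 1.13-fold (0.17, −0.15 to 0.50), and all intervals included 0. The ratio of TAC TSA to TAC Veh was −0.12 (−0.47 to 0.23). With receptor-promoter scaling TAC TSA was at −0.50 over TAC Veh, at −0.60 over Sham TSA, which is past 1.5-fold, and at −0.57 over Sham Veh.

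Itgam, the alpha chain of Mac-1 and a marker of monocytes, macrophages and neutrophils, followed the order of Ptprc in part. It held 61 reads in TAC TSA, 102 in TAC Veh, 100 in Sham TSA and 72 in Sham Veh (scaled counts of 12.1, 16.0, 14.4 and 10.6). TAC Veh and Sham TSA were again the high libraries. Its ratio in TAC Veh over Sham Veh was 0.60 (0.15 to 1.05), the only member apart in that comparison, where 1.93% of all promoters were apart and higher and 0.582% lower. With loess scaling on mean count, which allows for weak promoters shifting together, the ratio was 0.54 and short of 1.5-fold, and with receptor-promoter scaling it was 0.36. Itgam was at −0.41 (−0.89 to 0.07) in TAC TSA over TAC Veh, and in Sham TSA over Sham Veh at 0.44 (−0.01 to 0.90). With receptor-promoter scaling TAC TSA was at −0.79 over TAC Veh and −0.85 over Sham TSA, both past 1.5-fold, and at −0.43 over Sham Veh. The median of all genes was then −0.38 over TAC Veh and −0.61 over Sham TSA.

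Itgal, the alpha chain of LFA-1 on lymphocytes and other leukocytes, did not follow Ptprc. Its promoter held 110 reads in TAC TSA, 100 in TAC Veh, 110 in Sham TSA and 82 in Sham Veh (scaled counts of 21.8, 15.7, 15.9 and 12.1), so TAC TSA was its highest library and Sham Veh its lowest. The ratio was 0.85 (0.43 to 1.28) in TAC TSA over Sham Veh, the only member apart in that comparison, where 6.42% of all promoters were apart and higher and 0.0701% lower. Itgal was at 0.47 (0.07 to 0.88) in TAC TSA over TAC Veh and at 0.46 (0.07 to 0.85) against Sham TSA, both short of 1.5-fold. The TAC TSA library is also the one with the highest receptor background, and with receptor-promoter scaling Itgal was at 0.23 over Sham Veh, 0.09 over TAC Veh and −0.13 over Sham TSA. With loess scaling it was at 0.68 over Sham Veh.

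Itgax, the alpha chain of CR4 and a marker of dendritic cells and some macrophages, varied least among the alpha chains. It had 68 reads in TAC TSA, 90 in TAC Veh, 109 in Sham TSA and 97 in Sham Veh (scaled counts of 13.5, 14.2, 15.7 and 14.3). No ratio reached 1.5-fold, and every interval included 0. The widest, TAC TSA over Sham TSA, was −0.22 (−0.68 to 0.23), which became −0.81 with receptor-promoter scaling.

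Itga4, the alpha 4 chain that binds VCAM-1 and MAdCAM-1, was high in the TAC Veh library and nearly level in the other three. It held 90 reads in TAC TSA, 186 in TAC Veh, 142 in Sham TSA and 137 in Sham Veh, or scaled counts of 17.9, 29.3, 20.5 and 20.2. The ratio in TAC TSA over TAC Veh was −0.71 (−1.09 to −0.34), a 1.64-fold lower count and the lowest of the 8 members. In TAC Veh over Sham Veh it was 0.53 (0.21 to 0.86), a 1.45-fold difference short of the threshold. TSA after sham surgery gave 0.02 (−0.33 to 0.37) and TAC TSA over Sham Veh −0.18 (−0.58 to 0.22). The annotation places the gene Cerkl over part of Itga4. That overlap is of whole genes, and whether it reaches the promoter window was not examined.

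The partner chain Itgb7 had the most reads per promoter of the set. It held 174 reads in TAC TSA, 187 in TAC Veh, 217 in Sham TSA and 235 in Sham Veh (scaled counts of 34.5, 29.4, 31.3 and 34.7). TAC Veh was its lowest library. The ratio was 0.23 (−0.07 to 0.54) in TAC TSA over TAC Veh and −0.24 (−0.52 to 0.05) in TAC Veh over Sham Veh, and all intervals included 0. With receptor-promoter scaling TAC TSA was at −0.15 over TAC Veh, a change of sign, at −0.45 over Sham TSA and at −0.63 over Sham Veh, which is past 1.5-fold.

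Selplg, the selectin ligand, had 122 reads in TAC TSA, 169 in TAC Veh, 150 in Sham TSA and 164 in Sham Veh (scaled counts of 24.2, 26.6, 21.7 and 24.2). Its ratios ran from −0.16 (−0.49 to 0.17) in Sham TSA over Sham Veh to 0.16 (−0.20 to 0.52) in TAC TSA over Sham TSA, and every interval included 0. With receptor-promoter scaling TAC TSA was at −0.52 over TAC Veh, at −0.43 over Sham TSA and at −0.62 over Sham Veh, the last of them past 1.5-fold.

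In TAC TSA over TAC Veh, 2 of the 8 members, Ptprc and Itga4, were apart and lower, and none was higher. Over all genes 0.342% of promoters were apart and lower and 4.06% higher. The 8 members had a median log2 ratio of −0.13, beside 0.00 for all genes. Against Sham TSA, the TAC TSA library had 1 member apart and lower, Ptprc, beside 0.206% of all promoters (7.2% were higher), with a member median of −0.10 beside −0.01. In Sham TSA over Sham Veh Ptprc was the 1 member apart and higher, beside 0.582% of all promoters, and the same share, 0.582%, was lower. The member median there was 0.10 beside 0.01, and in TAC Veh over Sham Veh 0.28 beside 0.00. In TAC Veh over Sham Veh the receptor promoters had a median of 0.29, near that of the members. Their median was 0.07 in Sham TSA over Sham Veh, 0.41 in TAC TSA over TAC Veh and 0.67 against Sham TSA. The summed reads of the 8 genes gave a log2 ratio of −0.13 (−0.26 to 0.00) in TAC TSA over TAC Veh and 0.20 (0.08 to 0.33) in TAC Veh over Sham Veh, so the sum lay nearer 0 than Ptprc or Itga4 alone.

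With the interval alone, 2 members were lower and 1 higher in TAC TSA over TAC Veh, beside 10.4% and 8.13% of all promoters. Against Sham TSA the TAC TSA library had 1 lower and 1 higher, beside 13.8% and 10.3%. Sham TSA over Sham Veh had 0 lower and 1 higher, beside 3.81% and 5.2%, and TAC Veh over Sham Veh 0 lower and 3 higher, beside 7.2% and 5.82%. TAC TSA over Sham Veh had 0 lower and 1 higher, beside 10.5% and 9.02%. By this looser rule the members' counts lay near these shares except for the 3 higher in TAC Veh, which were Ptprc, Itgam and Itga4. With receptor-promoter scaling these 3 were at 0.27, 0.36 and 0.29 in TAC Veh over Sham Veh. Their intervals, moved down by the same amount, then included 0.

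**Figure D2:**
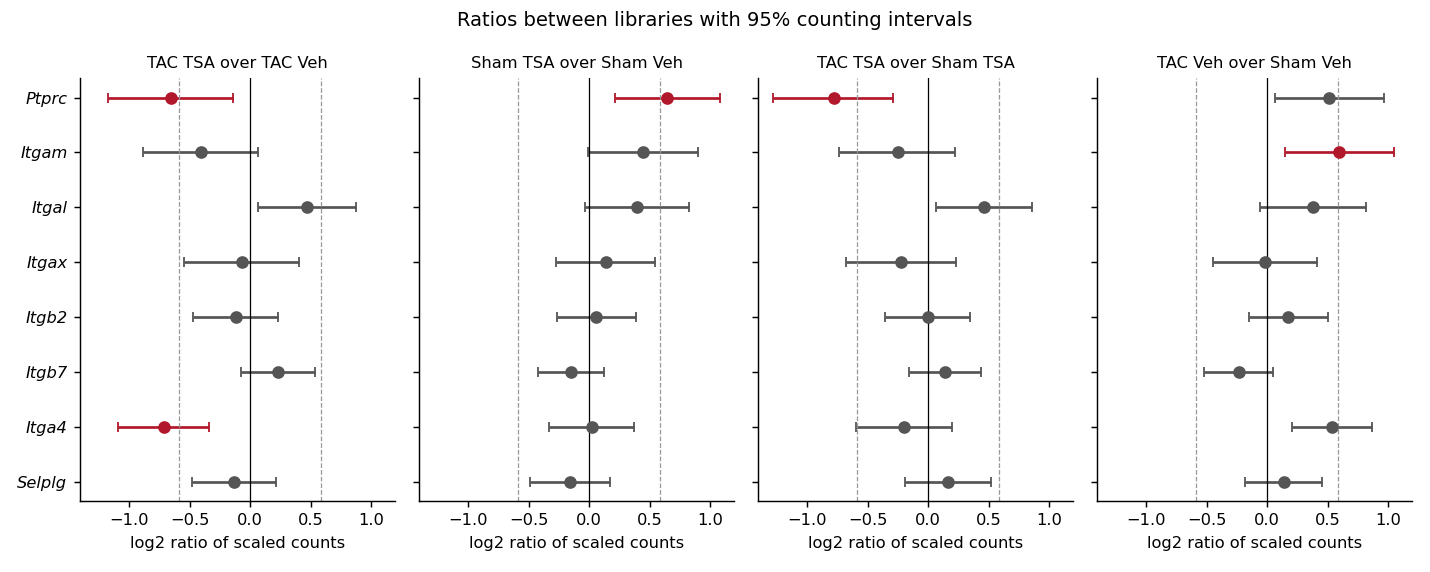
Log2 ratios of scaled counts (horizontal axis) of the 8 genes in 4 comparisons, with exact 95% counting intervals, red where the promoter is apart, and dashed lines at 1.5-fold. Ptprc lies at −0.65 in TAC TSA over TAC Veh and at 0.64 in Sham TSA over Sham Veh, Itga4 at −0.71 in TAC TSA over TAC Veh, and Itgb2, Itgb7, Itgax and Selplg have intervals that include 0 throughout.

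Because a single scaling factor per library cancels when 2 genes are compared within the same libraries, the alpha and beta chains of each heterodimer were set against each other, a comparison chosen after the values were seen. Itga4 and Itgb7 parted most. The log2 ratio of Itga4 minus that of Itgb7 was −0.94 (−1.41 to −0.47) in TAC TSA over TAC Veh and 0.77 (0.35 to 1.19) in TAC Veh over Sham Veh. Against Itgb1, its other partner, the differences were −0.49 (−0.89 to −0.09) and 0.53 (0.18 to 0.88). Itgb1 itself was at −0.22 (−0.40 to −0.04) in TAC TSA over TAC Veh and 0.00 (−0.15 to 0.16) in TAC Veh over Sham Veh. For LFA-1, Itgal minus Itgb2 was 0.59 (0.07 to 1.11) in TAC TSA over TAC Veh and 0.80 (0.26 to 1.33) in TAC TSA over Sham Veh. A shift between libraries that depends on promoter level does not cancel in this way. With loess scaling the LFA-1 differences were 0.52, with an interval that reached 0, and 0.69. The intervals for Mac-1 and CR4 included 0 in all 5 comparisons, at −0.29 (−0.86 to 0.28) for Itgam minus Itgb2 and 0.05 (−0.52 to 0.62) for Itgax minus Itgb2 in TAC TSA over TAC Veh.

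When surgery and drug were fitted as additive terms over the 4 libraries, no member passed an adjusted p of 0.05 for either term (edgeR quasi-likelihood test with Benjamini-Hochberg adjustment). Over all promoters 0.0131% were called higher and 0.0219% lower with TAC, and 0.206% higher and 0.00876% lower with TSA. The member with the lowest p was Itgal, with a log2 fold change of 0.42 for TAC over sham (adjusted p = 0.50) and 0.43 for TSA over vehicle (adjusted p = 1.0). It was the 1 member with an unadjusted p under 0.05 for each term, where 9.32% and 4.27% of all promoters were. DESeq2 and limma-voom also called no member. Of the 8 members, DESeq2 gave 0 an unadjusted p under 0.05 for either term, and limma-voom gave it to 1 for each. The model has 1 residual degree of freedom, the interaction, and Ptprc, whose TSA ratios had opposite signs after TAC and sham, had a fitted TSA change of 0.05 and a TAC change of −0.10.

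Other genes of leukocyte adhesion and signalling were taken as lists. Of 22 partners and ligands of these proteins none was apart in TAC TSA over TAC Veh, and the list median was −0.21. The endothelial ligands of the integrins are among them. Icam1, bound by LFA-1 and Mac-1, was at −0.31 (−0.51 to −0.11) in that comparison, Vcam1, bound by VLA-4, at −0.22 (−0.53 to 0.09), and Madcam1, bound by LPAM-1, at 0.13 (−0.21 to 0.46). These 3 were named for their role as ligands. Of 26 genes that switch integrins on or signal with CD45, 2 were apart and lower in TAC TSA over TAC Veh. Of all promoters 0.342% were. They were Fyb (−0.74, −1.16 to −0.33) and Lcp2 (−0.72, −1.14 to −0.31), adaptors that act beside each other downstream of antigen receptors. Both were equally apart in TAC TSA over Sham TSA, at −0.74 (−1.16 to −0.34) and −0.72 (−1.13 to −0.32), beside 0.206% of all promoters. Apbb1ip encodes the Rap1 effector RIAM that recruits talin to integrins. It was the 1 member of that list apart in TAC Veh over Sham Veh, at 0.64 (0.36 to 0.92). There 1.93% of all promoters were apart and higher.

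Among 14 pan-leukocyte genes, 2 were apart and lower in TAC TSA over TAC Veh, beside 0.342% of all promoters. Runx1, a transcription factor of blood cells also expressed outside them, had a ratio of −0.99 (−1.22 to −0.76), and Ikzf1, the lymphoid factor Ikaros, one of −0.71 (−1.14 to −0.28). Runx1 was also the 1 gene of the list apart in TAC Veh over Sham Veh, at 0.65 (0.46 to 0.85). There 1.93% of all promoters were apart and higher. The list median was −0.33 in TAC TSA over TAC Veh, −0.29 against Sham TSA, 0.24 in Sham TSA over Sham Veh and 0.30 in TAC Veh over Sham Veh. The signs match those of the member medians, and these comparisons share libraries. The receptor median was close to that of the list in TAC Veh over Sham Veh (0.29), but not in TAC TSA over TAC Veh (0.41).

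Markers of single leukocyte types were less uniform. Macrophage and monocyte markers had a median of −0.23 in TAC TSA over TAC Veh and 0.37 in Sham TSA over Sham Veh, where all 12 were above 0. C1qb, a complement chain made by macrophages, was the 1 of them apart, at −0.87 (−1.22 to −0.52) in TAC TSA over TAC Veh and −1.04 (−1.39 to −0.70) in TAC TSA over Sham TSA. In these 2 comparisons 0.342% and 0.206% of all promoters were apart and lower. The macrophage and monocyte markers had summed scaled counts of 342 in TAC TSA, 403 in TAC Veh, 432 in Sham TSA and 360 in Sham Veh. T and NK cell markers had a median of 0.44 in TAC TSA over TAC Veh, with 2 of 8 apart and higher, Ncr1 (1.03, 0.20 to 1.89, on 34 and 21 reads) and Cd8a (0.63, 0.06 to 1.20, on 60 and 49 reads). Gzmb (1.03) and Cd8a (0.67) were apart and higher against Sham TSA, as were Mpo of the neutrophil list (0.75) and Ms4a1 of the B cell list (0.65). Against Sham TSA 7.2% of all promoters and 372 of the 1274 receptor promoters were apart and higher, and the receptor median was 0.67. Nkg7, of NK and cytotoxic T cells, was apart and lower in TAC Veh over Sham Veh (−0.60), as were 0.582% of all promoters. The receptor promoters, weaker still, had the median of 0.41 in TAC TSA over TAC Veh given above. In the same comparison 179 of the 1274 were apart and higher, beside 4.06% of all promoters. There the neutrophil markers had a median of 0.21 and the B cell markers of 0.23, with none of 6 and none of 7 apart. No marker of these leukocyte types had 0 reads in any library.

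**Figure D3:**
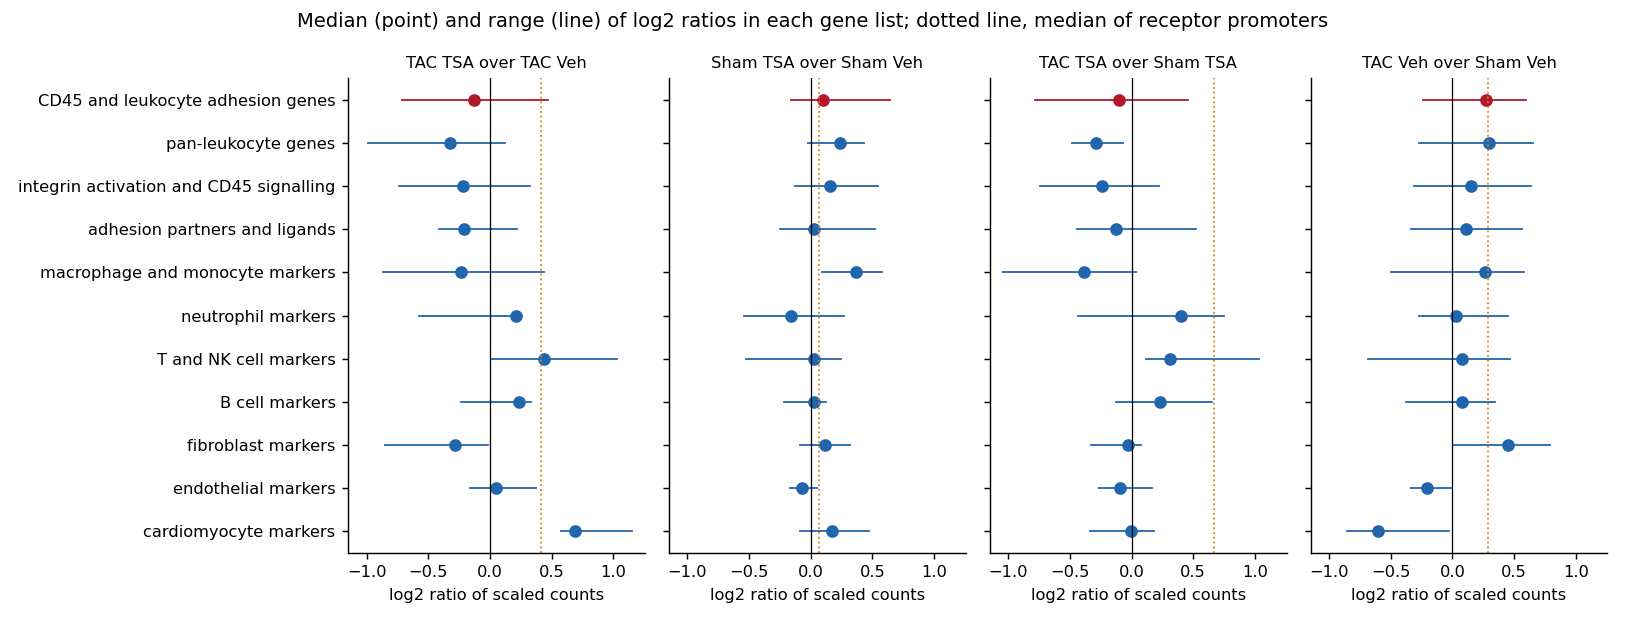
Median (point) and range (line) of log2 ratios of scaled counts for the 8 genes (red) and 10 other lists (blue) in 4 comparisons, with the median of receptor promoters as a dotted line. In TAC TSA over TAC Veh the 8 genes have a median of −0.13, pan-leukocyte genes −0.33, T and NK cell markers 0.44 and cardiomyocyte markers 0.69. In Sham TSA over Sham Veh the receptor median is 0.07.

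Markers of other cells of the ventricle differed between the same libraries. Cardiomyocyte markers had a summed scaled count of 686 in TAC TSA, 403 in TAC Veh, 691 in Sham TSA and 598 in Sham Veh, with a median log2 ratio of 0.69 in TAC TSA over TAC Veh, where 9 of 10 were apart and higher, led by Actc1 (1.15) and Myh6 (1.12), which encode cardiac actin and myosin. In TAC Veh over Sham Veh their median was −0.60, with 6 of 10 apart and lower. Fibroblast markers summed to 271 in TAC TSA, 332 in TAC Veh, 275 in Sham TSA and 259 in Sham Veh, with medians of −0.28 and 0.45 in the same 2 comparisons. Postn, the matrix protein periostin, was the 1 of 8 apart and lower in TAC TSA over TAC Veh (−0.85), and Postn (0.79) and Mfap5 (0.61) were apart and higher in TAC Veh over Sham Veh. Beside them, 0.342% of all promoters were apart and lower in TAC TSA over TAC Veh and 1.93% higher in TAC Veh over Sham Veh. Endothelial markers had medians of 0.04 and −0.21. In Sham TSA over Sham Veh, where Ptprc was at 0.64, the cardiomyocyte median was 0.18 and the fibroblast median 0.12. The part that the mix of cells plays in the members' ratios was not tested.

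By distance between centred log2 scaled counts over the 4 libraries, the promoters of at least 100 mean counts nearest to Ptprc were those of Ly86, Mir21a, Bcl3, Fyb and Ccl7. Ly86, whose product MD-1 pairs with a receptor of the Toll family on myeloid and B cells, was nearest at a distance of 0.09. Its scaled counts were 13.9 in TAC TSA, 20.3 in TAC Veh, 22.8 in Sham TSA and 14.2 in Sham Veh. The other distances ran from 0.16 to 0.22. With 4 libraries the likeness is a description. Among the members themselves Itgb2 and Selplg were the closest pair, at 0.17 in 28 pairs.

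The scaling of libraries decided how far most TAC TSA ratios lay from 0, and did less for Sham TSA over Sham Veh. With receptor-promoter scaling the median of all genes was −0.38 in TAC TSA over TAC Veh, −0.61 against Sham TSA, and −0.24 in TAC Veh over Sham Veh, and the members shifted with it. Ptprc was then at −1.03, −1.37 and 0.27 in these comparisons and at 0.61 in Sham TSA over Sham Veh. Itga4 was at −1.10, −0.79 and 0.29. With loess scaling Ptprc was at −0.82, −1.03 and 0.46, and Itga4 at −0.80, −0.31 and 0.53. The direction of Ptprc was the same under the 3 scalings in all 4 comparisons plotted. That of Itga4 was the same in 3 of them, and in Sham TSA over Sham Veh it was near 0 under each. Over all promoters TMM gave 927 apart and higher against 78 lower in TAC TSA over TAC Veh, and loess scaling gave 302 and 249. Against Sham TSA the TAC TSA library had 1643 and 47 with TMM, and 188 and 306 with loess, and TAC Veh over Sham Veh had 440 and 133 with TMM, and 193 and 244 with loess.

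**Figure D4:**
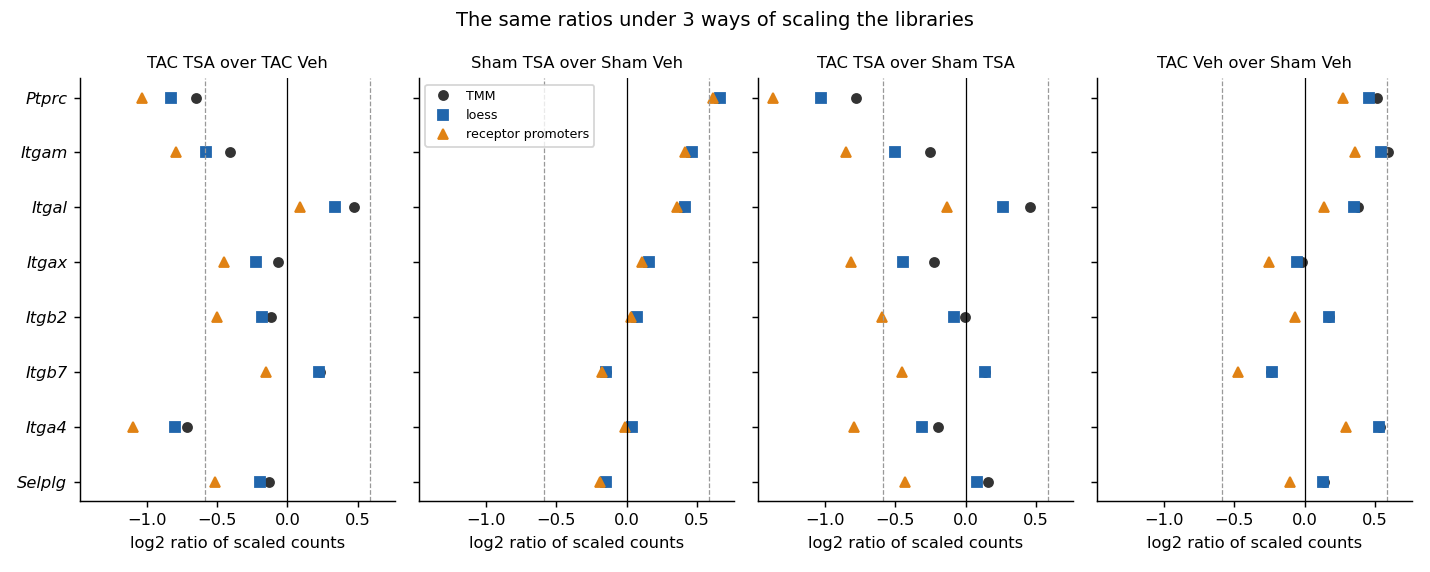
Log2 ratios of scaled counts of the 8 genes in 4 comparisons with TMM (circles), loess (squares) and receptor-promoter scaling (triangles), dashed lines at 1.5-fold. In TAC TSA over TAC Veh Ptprc runs from −1.03 to −0.65 and Itga4 from −1.10 to −0.71, while in Sham TSA over Sham Veh the 3 symbols of each gene nearly coincide.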

How the data were processed

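The deposited table holds raw read counts per promoter of 31594 RefSeq transcripts in 4 libraries, whole numbers that the authors did not normalise. Per the submitters' processing notes, BWA 0.5.9, MACS 1.4.1 and mm9 were used. The sources used here give neither their roles, nor the promoter window, counting tool or handling of duplicates. The 6 deposited region lists were not used here, since their mm9 coordinates could not be tied to genes.

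Of the IDs, 31115 (98.5%) were matched to symbols of GRCm38.p6, and the rest, with 1.11% of counts, were left out. For the counts that annotation gave names only. It also gave the printed windows and the overlap of Cerkl with Itga4. The members, lists, heterodimer comparisons and tests were chosen with earlier results of these data known. Named were all 8 members, at most 4 genes apart per list and comparison, the 5 genes nearest to Ptprc, and partner and ligand genes chosen by role (Itgb1, Icam1, Vcam1, Madcam1). Cd68 and Ly6g were not analysed here.

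Counts were scaled by TMM (edgeR 4.0.16, R 4.3.3). Intervals are exact conditional Clopper-Pearson for ratios, exact Poisson for levels and Wald for differences of ratios. They cover counting error and treat PCR reads as independent. With 1 library per group no pairwise test was made. The additive fit used edgeR, with DESeq2 1.42.0 and limma 3.58.1 as alternatives. Methods were run on simulated data, but no result of that run is given here, so it is no check on the calls reported. Python 3.11.15, scipy 1.17.1 and matplotlib 3.10.9 did the rest.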

Additional observations from a re-analysis of the deposited data

Results flagged for a closer look

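For Ptprc the TSA ratio after TAC (−0.65) and after sham surgery (0.64) had intervals on opposite sides of 0, and so had the TAC ratio under TSA (−0.78) and under vehicle (0.51). Both are the same difference of −1.29 on the log2 scale. It was not tested, since each group has 1 library.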

How the results depend on the processing

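The counts of members apart were recomputed under 4 other scalings, 2 other count filters, the transcript with the lowest mean count, and other thresholds. With loess scaling 0 members were apart and higher in TAC Veh over Sham Veh. With receptor-promoter scaling 0 were higher there, and 3 were lower in TAC TSA over TAC Veh, Itgam among them. In TAC TSA against Sham TSA 5 were lower, and against Sham Veh that library had 0 higher and 5 lower. Under that scaling 3259 of all 22835 promoters were apart and lower in TAC TSA over TAC Veh. Against Sham TSA and Sham Veh 11895 and 12861 were, so there the members' counts lay near the shares over all promoters. A 2-fold threshold left 0 members apart in any comparison. Asking only that the interval leave out 1, with TMM, gave 3 higher in TAC Veh over Sham Veh (Ptprc, Itgam and Itga4, where 5.82% of all promoters were) and 1 higher, Itgal, in TAC TSA against either TAC Veh or Sham TSA. The intervals of Ptprc, Itgam and Itga4 in TAC Veh over Sham Veh no longer left out 1 with receptor-promoter scaling. Total-count scaling and a mean count of at least 50 each put 1 member, Itgb7, above 0 in the surgery by drug difference. Its value was 0.43 and 0.41 there, beside 0.38 (−0.02 to 0.78) in the main setting. A single factor per library moves this difference by the same amount for every promoter. Receptor-promoter scaling put 4 members below 0, beside 3 in the main setting. The additive fit called no member under any alternative, while its calls over all promoters, 8 for surgery and 49 for drug, ran from 0 to 22 and from 0 to 79. Of 73 ratios and differences of members and heterodimers, 20 left their counting interval with receptor-promoter scaling, all of them member ratios that involve TAC TSA, and none did under the other alternatives. No called value changed sign. The heterodimer differences and their alternatives were chosen after seeing the data, and none left its interval. A single factor per library cancels in them, so of the scalings only loess could move them. That they stayed in place under the others is no check. Of the members only Ptprc has transcripts with differing counts, so the lowest-count transcript could change the reads of no other member. No paired analysis was possible because each group has 1 library, and for the same reason no replicate could be left out. Between 50 and 235 reads lie behind each member's value, and this number sets the width of its intervals.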
